A study of Mus musculus with 9 samples.

Results

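Transcription of 9 genes that carry the interferon signal from the cell surface to the nucleus was compared in mouse embryonic fibroblasts (MEFs) of 3 genotypes. The genes were taken by name and Ensembl identifier from a table of 47937 genes. They are the type I interferon receptor genes Ifnar1 and Ifnar2, the receptor-bound kinase genes Jak1 and Tyk2, the transcription factor genes Stat2 and Irf9, and the interferon regulatory factor genes Irf1, Irf3 and Irf7. All 9 passed the filter on low counts, which left 15540 genes tested. The comparison asked whether the signalling components rise together with the genes that interferon induces.

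Each genotype was represented by 3 RNA-seq libraries with between 21319778 and 32157623 gene counts. The labels give MEFs of wild type and of both double knockouts, and what follows on the lines is from the methods of the study, whose data statement names another series, so that it was assumed to apply here. WT cells would then be the Eset1-conditional MEF line E1c, a clone selected for high Cre activity in which the 6 known H3K9 methyltransferase genes are present. S1S2 cells lack Suv39h1 and Suv39h2, whose products trimethylate lysine 9 of histone H3 (H3K9) in heterochromatin. G9Gl cells lack G9a (Ehmt2) and Glp (Ehmt1), which mono- and dimethylate H3K9 in euchromatin. By the same methods, both mutants were made from E1c with CRISPR/Cas9 and each is 1 clone, so that genotype and clone cannot be told apart. All 3 groups would carry the conditional Eset1 allele, and the study describes a tamoxifen-inducible Cre construct that was introduced again after gene disruption, with the lines kept under puromycin. The methods speak of 3 biological replicates of each line, but neither they nor the labels say whether these are separate cultures, so p-values measure only the spread between these libraries.

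Type I interferons bind a receptor made of Ifnar1 and Ifnar2, which brings together the kinases Tyk2 and Jak1. The kinases phosphorylate STAT proteins, and Stat2 together with Irf9 forms the DNA-binding complex ISGF3, which activates genes that hold an interferon-stimulated response element (ISRE) in their promoters. Irf3 and Irf7 act upstream, where they are activated by nucleic acid sensors and switch on the interferon genes, while Irf1 acts on genes of antigen presentation and of the interferon-gamma response. Several of these components, Irf7 and Irf9 among them, are themselves known interferon-induced genes.

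The identity of the libraries was checked first. Suv39h1 fell by 1.36 on the log2 scale in S1S2 libraries while Suv39h2 rose by 0.70, and Ehmt2 and Ehmt1 fell by 1.20 and 1.04 in G9Gl libraries. Transcript levels do not measure the loss of protein. The 8 fibroblast markers were detected in every genotype and summed to 9795 to 11290 CPM (counts scaled by library size) in WT, 7369 to 7430 CPM in S1S2 and 7718 to 8573 CPM in G9Gl libraries. In S1S2 5 of the 8 were called lower. These were Col3a1 (-3.007 on the log2 scale), Col1a2 (-2.599), Pdgfra (-2.035), Thy1 (-1.293) and Pdgfrb (-1.136). In G9Gl 2 were called lower (Pdgfra at -1.85 and Pdgfrb at -1.34 on the log2 scale) and 1 higher (Thy1 at 2.94). Markers of other cells were summed list by list. The 7 leukocyte and macrophage markers summed to between 0.0322 and 0.457 CPM, with 5 of them at 0 counts in WT and in S1S2 libraries and 3 in G9Gl. The 3 endothelial markers summed to 0.123 to 0.165 CPM in WT, 0.188 to 0.656 CPM in S1S2 and 0.718 to 2.11 CPM in G9Gl. The 4 epithelial markers summed to 0.198 to 0.369, 0.184 to 0.329 and 3.97 to 5.26 CPM, respectively. In G9Gl the epithelial keratin gene Krt14 (0 counts in WT, 109 to 156 per G9Gl library) and the endothelial cadherin gene Cdh5 (0 and 14 to 43 counts) were called higher, while the epithelial gene Epcam had 6 to 10 counts in WT and 1 to 3 in G9Gl. Of the other endothelial genes, Pecam1 had 4 counts in each WT library and 2 to 4 in G9Gl, and Tek had 0 to 1 and 4 to 13. The part of these shifts in the results was not tested.

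Of the 9 genes, Irf7 was called higher in S1S2 cells and Irf7 and Irf9 were called higher in G9Gl cells, where a call needed an adjusted p of at most 0.01 and a change of at least 2-fold. The share of all tested genes called higher was 4.66% in S1S2 and 6.77% in G9Gl, and none of the 9 was called lower (edgeR and DESeq2), against 4.34% and 3.4% of all genes. Without the fold limit, 5 genes rose in S1S2 (Irf7, Irf1, Irf9, Stat2 and Jak1) and 1 fell (Ifnar2), where 20.3% and 17.6% of all genes did. In G9Gl cells 6 rose (Irf7, Irf9, Stat2, Irf1, Tyk2 and Irf3) and both receptor genes fell, against 19% and 16% of all genes. At an unadjusted p under 0.05, the genes lower than in WT numbered 2 in S1S2 and 3 in G9Gl, where 26.8% and 25.3% of all genes were. The median log2 fold change of the 9 was 0.32 in S1S2 and 0.26 in G9Gl, with the median of all genes at -0.0032 and -0.0067. The libraries of S1S2 and WT did not overlap for 8 of the 9 genes, as for 56% of all genes, and those of G9Gl and WT for all 9, as for 52.8%.

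**Figure D1:**
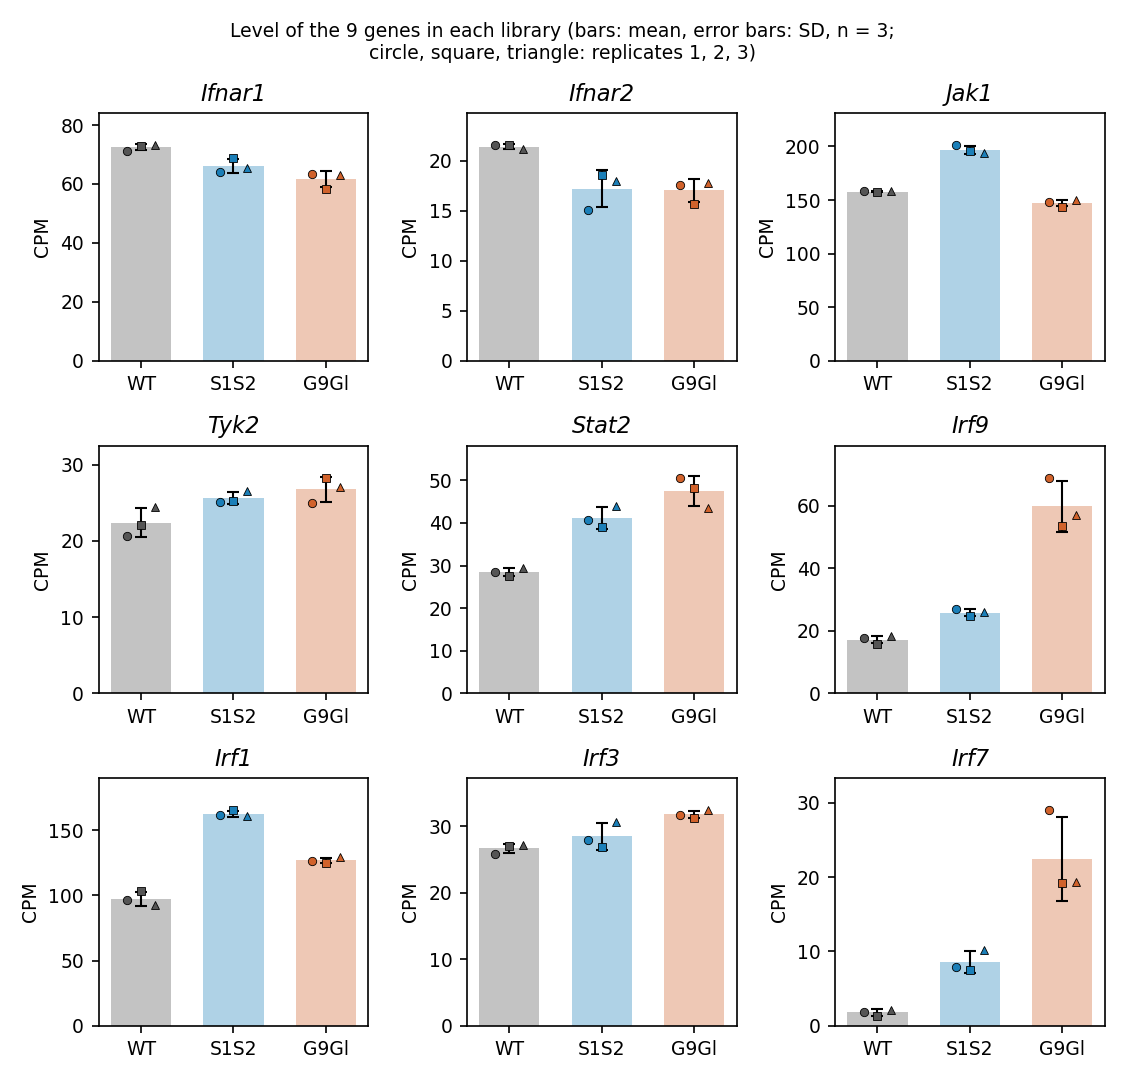
Level of each gene in CPM (vertical axes, from 0) in the libraries of WT, S1S2 and G9Gl cells. Bars give the mean and error bars the SD of 3 libraries, and symbols give replicates 1 to 3. Irf7 and Irf9 rise stepwise from WT through S1S2 to G9Gl, Irf1 and Jak1 are highest in S1S2, and the receptor genes are highest in WT.

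The RefSeq promoter windows of the 2 genes that were called are shown with those of Irf3 and Stat2, because they differ in their content of CpG dinucleotides, the sites of DNA methylation. The sequences run from 250 bases before to 50 bases after a RefSeq start site (GRCm38.p6), 5′ to 3′ on the strand of the gene. In the first 3, capitals mark CpG. Irf7 lies at chr7:141266375-141266674 on the minus strand, Irf9 at chr14:55603735-55604034 on the plus strand and Irf3 at chr7:44997398-44997697 on the plus strand. In Stat2, at chr10:128270248-128270547 on the plus strand, capitals mark the ISRE core, here on the opposite strand.
Irf7: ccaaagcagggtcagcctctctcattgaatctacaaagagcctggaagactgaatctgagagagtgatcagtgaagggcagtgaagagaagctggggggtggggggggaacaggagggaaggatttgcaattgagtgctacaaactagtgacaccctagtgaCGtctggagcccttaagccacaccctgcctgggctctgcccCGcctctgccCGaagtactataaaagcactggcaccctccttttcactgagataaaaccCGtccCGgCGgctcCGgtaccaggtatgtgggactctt
Irf9: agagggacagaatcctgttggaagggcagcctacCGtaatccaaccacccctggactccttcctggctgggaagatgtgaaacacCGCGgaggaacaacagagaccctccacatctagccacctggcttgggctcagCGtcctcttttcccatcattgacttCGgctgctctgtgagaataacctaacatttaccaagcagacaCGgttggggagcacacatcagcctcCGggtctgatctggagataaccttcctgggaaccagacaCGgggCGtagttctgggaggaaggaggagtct
Irf3: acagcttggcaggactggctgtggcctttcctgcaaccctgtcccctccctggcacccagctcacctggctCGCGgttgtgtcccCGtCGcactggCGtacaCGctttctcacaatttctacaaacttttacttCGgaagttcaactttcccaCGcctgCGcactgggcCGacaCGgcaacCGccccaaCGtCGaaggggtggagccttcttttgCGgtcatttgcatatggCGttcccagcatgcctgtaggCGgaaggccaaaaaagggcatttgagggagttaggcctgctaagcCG
Stat2: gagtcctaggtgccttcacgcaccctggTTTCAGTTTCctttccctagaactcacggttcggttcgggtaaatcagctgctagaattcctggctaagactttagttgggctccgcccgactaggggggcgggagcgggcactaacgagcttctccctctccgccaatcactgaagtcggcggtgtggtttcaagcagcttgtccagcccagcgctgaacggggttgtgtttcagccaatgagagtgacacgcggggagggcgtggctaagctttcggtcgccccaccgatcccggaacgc

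The Irf7 window held 7 CpG, with an observed-to-expected CpG ratio of 0.31, and the Irf9 window held 9 with a ratio of 0.392. A further RefSeq start of Irf9, with its window at chr14:55604329-55604628, had 1 CpG and a ratio of 0.0483. In the other 7 genes the ratio lay between 0.712 (Irf3, 18 CpG) and 1.02 (the downstream start of Irf1), while the median of 32851 RefSeq promoters was 0.384. Irf7 and the first start of Irf9 were thus near that median, the further Irf9 start below it and the other members above it. Both Irf9 windows lie inside the gene as GENCODE annotates it, which begins upstream of them at position 55603571, so that the region at that annotated start was not examined. The ISRE core GAAANNGAAA, searched on both strands, occurred in the Stat2 window and in none of the other 8 genes, and in 3.44% of all promoters. The STAT-binding core TTCNNNGAA occurred in the Ifnar1, Ifnar2 and Irf1 windows and in 8.3% of all promoters. No match says only that these letters are not in the window.

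At the level of the receptor, both genes were lower in the mutants, by less than 1.3-fold against WT. Ifnar1 (chr16:91485238-91507441), which binds Tyk2, was measured at 71.3, 72.9 and 73.1 CPM in WT, 64.2, 68.9 and 65.5 CPM in S1S2 and 63.5, 58.4 and 63.1 CPM in G9Gl libraries. The 3 genotypes did not overlap, with WT highest and G9Gl lowest. The log2 fold change against WT was -0.23 ± 0.040 (SE, n = 3 against 3, adjusted p = 0.000722) in G9Gl and -0.13 ± 0.032 (adjusted p = 0.0371) in S1S2, so that the decrease passed the test only in G9Gl. The difference between the mutants did not pass (-0.10 ± 0.049, adjusted p = 0.0879). Ifnar2 (chr16:91372783-91405589), the chain that binds Jak1 and the STAT proteins, gave 21.6, 21.6 and 21.2 CPM in WT, 15.1, 18.6 and 18.0 CPM in S1S2 and 17.6, 15.7 and 17.8 CPM in G9Gl. It fell by 0.31 on the log2 scale in S1S2 (SE 0.092, adjusted p = 0.00364) and by 0.33 in G9Gl (SE 0.058, adjusted p = 0.00213), and the mutants overlapped each other.

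The receptor genes are neighbours on chromosome 16, and the 451 tested genes of that chromosome shifted as a whole, with medians of -0.09 in S1S2 and -0.20 in G9Gl on the log2 scale. With the median of each chromosome removed, the change in G9Gl was -0.034 for Ifnar1 (adjusted p = 0.609) and -0.13 for Ifnar2 (adjusted p = 0.188), and that of Ifnar2 in S1S2 was -0.23 (adjusted p = 0.0283). None of these passed the test. The decrease of Ifnar2 in S1S2 also lost significance without single libraries, at -0.31 without WT replicate 1 (adjusted p = 0.0128) and -0.23 without S1S2 replicate 1 (adjusted p = 0.0287), and in G9Gl the decrease no longer passed without G9Gl replicate 2 (-0.28, adjusted p = 0.0153). About 7.09% of the 75-base stretches of Ifnar2 are shared with the overlapping gene Gm21970, so that its count is less certain than that of Ifnar1.

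The kinase genes differed from WT by less than 1.3-fold. Jak1 (chr4:101152367-101265282), the kinase shared by the type I and type II interferon receptors, had 158.5, 157.2 and 158.1 CPM in WT, 201.1, 195.6 and 193.9 CPM in S1S2 and 148.0, 143.9 and 149.8 CPM in G9Gl libraries. S1S2 libraries were above all others and G9Gl libraries below all others. Jak1 rose 1.25-fold in S1S2 (log2 fold change 0.32 ± 0.016, adjusted p = 2.57e-06), and its change in G9Gl of -0.10 ± 0.017 did not pass the test (adjusted p = 0.039). The difference between the mutants did, with G9Gl below S1S2 by -0.42 ± 0.023 on the log2 scale (adjusted p = 5.95e-08). Tyk2 (chr9:21104068-21131243), which is held by Ifnar1, was measured at 20.6, 22.1 and 24.5 CPM in WT, 25.1, 25.2 and 26.6 CPM in S1S2 and 25.02, 28.3 and 27.0 CPM in G9Gl. The mutants overlapped each other and lay above WT. Tyk2 rose by 0.26 ± 0.088 on the log2 scale in G9Gl (adjusted p = 0.0062), but this no longer passed without each of 4 libraries in turn. The value was 0.20 without WT replicate 1 (adjusted p = 0.0476), 0.25 without WT replicate 2 (adjusted p = 0.0172), 0.22 without G9Gl replicate 2 (adjusted p = 0.0357) and 0.25 without G9Gl replicate 3 (adjusted p = 0.0225). It also did not pass without a composition factor (0.23, adjusted p = 0.016), in a fit of only the libraries compared (0.26, adjusted p = 0.0131) or with chromosome medians removed (0.23, adjusted p = 0.0144). In S1S2 the value was 0.19 ± 0.075 (adjusted p = 0.0339), which passed without WT replicate 3 (0.26, adjusted p = 0.00587) and with chromosome medians removed (0.27, adjusted p = 0.00568). About 6.67% of the 75-base stretches of Tyk2 are shared with an antisense gene, and it is not given in the sources used here whether strand was used in counting.

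Both measured subunits of ISGF3 rose in both mutants. Stat2 (chr10:128270559-128292849), which supplies the activation domain of the complex, was at 28.5, 27.5 and 29.4 CPM in WT, 40.7, 39.0 and 43.9 CPM in S1S2 and 50.6, 48.3 and 43.6 CPM in G9Gl. All mutant libraries exceeded all WT libraries. Stat2 rose 1.45-fold in S1S2 (log2 fold change 0.53 ± 0.057, adjusted p = 3.11e-06) and 1.67-fold in G9Gl (0.74 ± 0.069, adjusted p = 3.65e-08). The mutants overlapped, and their difference of 0.21 ± 0.081 was just outside the limit (adjusted p = 0.0108). That difference passed in 8 of 15 other settings, among them without S1S2 replicate 3 (0.25, adjusted p = 0.00569) and without G9Gl replicate 3 (0.27, adjusted p = 0.00241). It did not pass when any other mutant library was left out, down to 0.16 without G9Gl replicate 1 (adjusted p = 0.0615), and with chromosome medians removed it was 0.017 (adjusted p = 0.848).

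Irf9 (chr14:55603571-55610030), which gives ISGF3 its DNA sequence specificity, had 17.5, 15.8 and 18.1 CPM in WT, 26.9, 24.5 and 25.9 CPM in S1S2 and 68.9, 53.4 and 56.9 CPM in G9Gl. The 3 genotypes were separate, and G9Gl replicate 1 was the highest library. Irf9 rose 1.499-fold in S1S2 (log2 fold change 0.58 ± 0.072, adjusted p = 4.1e-05) and 3.48-fold in G9Gl (1.799 ± 0.13, adjusted p = 1.11e-11). G9Gl exceeded S1S2 by 1.22 ± 0.12 on the log2 scale (adjusted p = 1.33e-09). Within ISGF3 the change was unequal, since Stat2 and Irf9 rose by nearly the same factor in S1S2 while in G9Gl the fold change of Irf9 was larger.

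Irf1 (chr11:53770014-53778374), the most abundant of the regulatory factor transcripts, had 96.8, 103.1 and 92.7 CPM in WT, 161.7, 165.4 and 161.2 CPM in S1S2 and 126.1, 125.3 and 129.4 CPM in G9Gl. S1S2 libraries were highest, G9Gl libraries intermediate and WT libraries lowest, with no overlap. Irf1 rose 1.67-fold in S1S2 (log2 fold change 0.74 ± 0.046, adjusted p = 4.02e-10) and 1.30-fold in G9Gl (0.38 ± 0.047, adjusted p = 1.58e-06), and G9Gl was below S1S2 by -0.36 ± 0.018 (adjusted p = 2.28e-06). The order of the mutants was thus opposite to that of Irf9 and Irf7.

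Irf3 (chr7:44997648-45002848), which is present in resting cells and activated by phosphorylation, had 25.9, 27.0 and 27.1 CPM in WT, 28.0, 26.8 and 30.7 CPM in S1S2 and 31.7, 31.3 and 32.4 CPM in G9Gl. S1S2 overlapped WT, and the G9Gl libraries lay above all others. In S1S2 the log2 fold change was 0.09 ± 0.061 (adjusted p = 0.231). Irf3 rose by 0.25 ± 0.026 in G9Gl (adjusted p = 0.00198), which was lost without WT replicate 1 (0.23, adjusted p = 0.0144) and without G9Gl replicate 3 (0.24, adjusted p = 0.0105).

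Irf7 (chr7:141262706-141266481), the factor that amplifies interferon production, had the largest change of the 9 genes in both mutants. It was measured at 1.88, 1.29 and 2.16 CPM in WT, 7.95, 7.54 and 10.2 CPM in S1S2 and 29.0, 19.1 and 19.3 CPM in G9Gl, from 39 to 67 counts per WT library, 173 to 217 per S1S2 library and 533 to 826 per G9Gl library. The lowest library of each genotype was above the highest of the one before. Irf7 rose 4.78-fold in S1S2 (log2 fold change 2.26 ± 0.25, adjusted p = 1.59e-07) and 12.6-fold in G9Gl (3.65 ± 0.29, adjusted p = 5.31e-11). G9Gl exceeded S1S2 by 1.40 ± 0.24 (adjusted p = 9.81e-07). Without G9Gl replicate 1, the highest library, the changes against WT and S1S2 were 3.43 (adjusted p = 4.14e-12) and 1.17 (adjusted p = 8.08e-07).

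**Figure D2:**
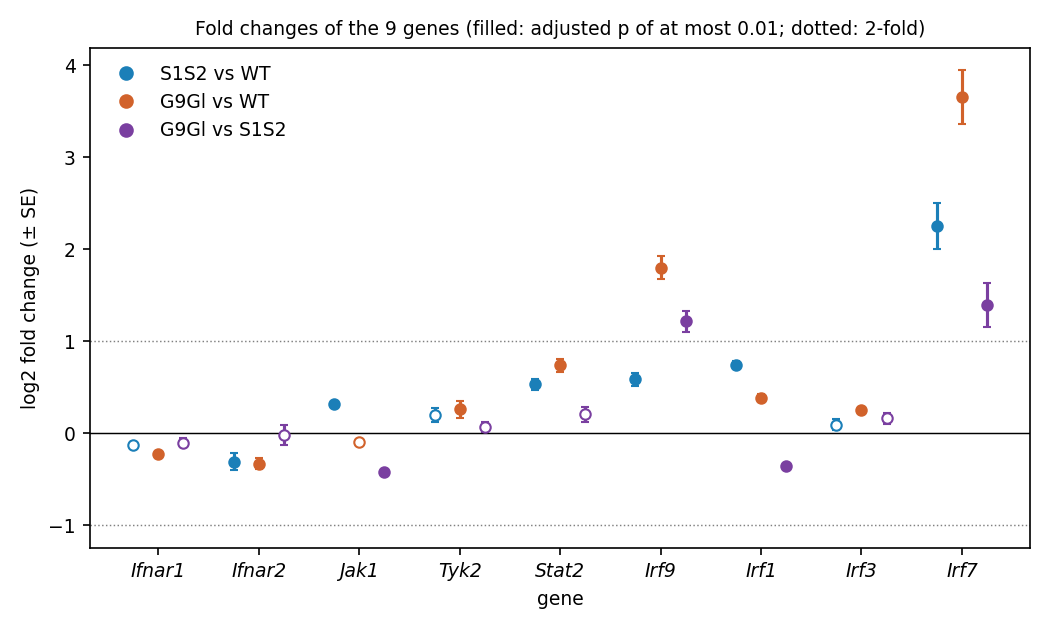
Log2 fold change (vertical axis) of each gene for both mutants against WT and for G9Gl against S1S2, with SE from the spread of 3 libraries per genotype. Filled points have an adjusted p of at most 0.01 and dotted lines mark 2-fold. Points beyond the upper dotted line belong to Irf7 in all 3 comparisons and to Irf9 in both comparisons of G9Gl.

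Between the mutants, 2 of the 9 genes were called higher in G9Gl than in S1S2 (Irf9 and Irf7) and none lower (edgeR and DESeq2), where 7.97% and 5.08% of all tested genes were. Without the fold limit, the same 2 genes were higher and 2 were lower (Jak1 and Irf1), against 21.6% and 21.1% of all genes. At an unadjusted p under 0.05, 2 were lower, and so were 28.7% of all genes. For 6 of the 9 genes the libraries of the mutants did not overlap, as for 60.8% of all genes. The median of the 9 was 0.063, and of all genes 0.00016.

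To compare levels between the genes, CPM were divided by the length of the longest annotated transcript in kilobases (kb). For Irf9, Stat2 and Irf7 this was 3869, 4397 and 3240 bases. The order between genes depends on this choice, and no other transcript length was tried. In WT the order per kb was Irf1 (45.6 CPM per kb), Jak1 (32.2), Ifnar1 (18.5), Irf3 (13.1), Ifnar2 (7.04), Stat2 (6.47), Tyk2 (4.64), Irf9 (4.43) and Irf7 (0.548). Only Tyk2 and Irf9 overlapped between neighbours. In S1S2 the order began alike with Irf1 (76.2 CPM per kb), Jak1 (40.1), Ifnar1 (16.9) and Irf3 (14.02), and went on with Stat2 (9.37), Irf9 (6.66), Ifnar2 (5.65), Tyk2 (5.31) and Irf7 (2.64), where Ifnar2 and Tyk2 overlapped. In G9Gl, Irf9 reached 15.4 ± 2.10 CPM per kb (SD, n = 3) and overlapped Irf3 (15.7 ± 0.271), which overlapped Ifnar1 (15.8 ± 0.724). Irf9 was thereby above Stat2 (10.8 ± 0.811) in G9Gl, while it was below Stat2 in WT and S1S2. Irf7, the lowest of the 9 in WT and S1S2, reached 6.94 ± 1.74 CPM per kb in G9Gl and lay above Ifnar2 (5.59) and Tyk2 (5.55), which overlapped.

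**Figure D3:**
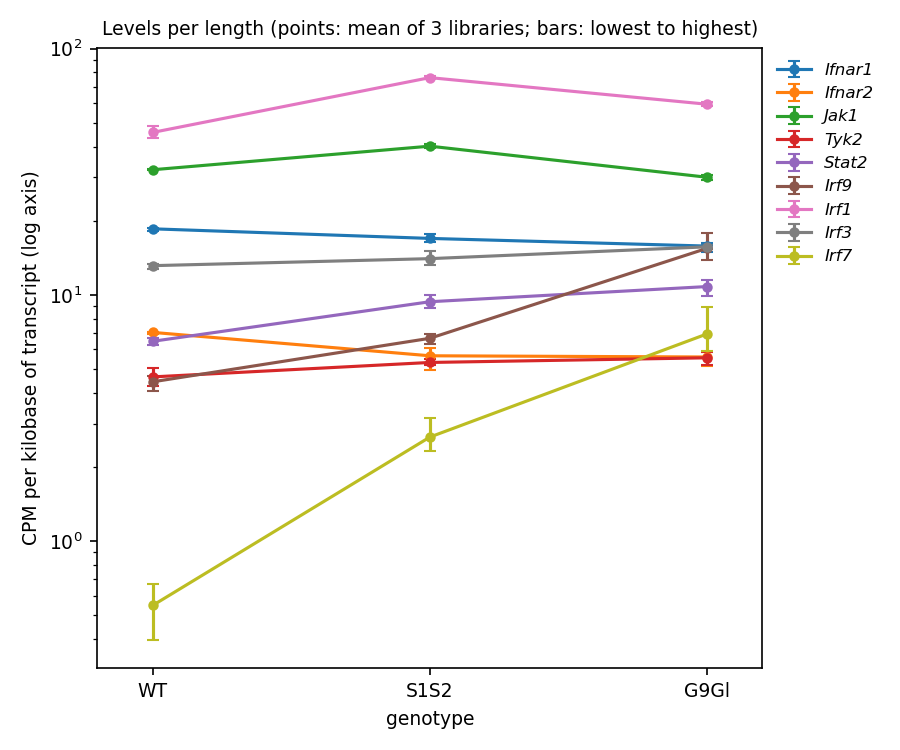
Level per length of the 9 genes (CPM per kb of the longest transcript, log axis) by genotype. Points are means of 3 libraries, bars run from the lowest to the highest library and lines join the points of a gene. Irf9 crosses Stat2 between S1S2 and G9Gl, and Irf7 rises from 0.548 to 6.94 CPM per kb while Irf1 and Jak1 stay on top.

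The interferon genes themselves had few or no reads. Of 21 interferon ligand genes none passed the filter, and 16 of them, Ifnb1 and Ifng included, had 0 counts in every library and were not detectable at this depth. A count of 0 allows up to 3 counts, or 0.0923 to 0.141 CPM depending on the library. Of the other 5, Ifna2, Ifnab and Ifnk had 1 count in 1 library, Ifne had at most 2 counts in a library and Ifnz at most 6 (0.193 CPM, WT replicate 3). About 68.4% of the 75-base stretches of Ifnz are shared with other genes. These 5 were named after their values were seen. Of the other interferon receptor genes, 3 of 4 were tested and none was called in either mutant (edgeR and DESeq2), with log2 fold changes from -0.20 to 0.63 in S1S2 and from -0.28 to 0.75 in G9Gl. At an unadjusted p under 0.05, 3 of them differed from WT in S1S2 and 2 in G9Gl, as did 54.6% and 52.4% of all genes. With the adjusted limit, Ifngr2 rose 1.54-fold in S1S2 (adjusted p = 8.18e-08) and Ifngr1 rose 1.68-fold in G9Gl (adjusted p = 4.17e-10), both chains of the interferon-gamma receptor. The other JAK and STAT genes, of which 6 of 7 were tested, also had no call by edgeR or DESeq2, with values between -0.70 and 0.59 in S1S2 and between -0.20 and 0.17 in G9Gl. Here 3 and 4 genes had an unadjusted p under 0.05. With the adjusted limit, Jak2 rose 1.51-fold (adjusted p = 7.88e-07) and Jak3 fell by 0.70 on the log2 scale (adjusted p = 9.1e-06) in S1S2, and no gene of this list passed in G9Gl. These 4 receptor and kinase genes were named after their values were seen.

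Among the regulatory factors outside the 9, 2 of 5 were tested. Irf5, which acts downstream of Toll-like receptors, had a mean of 2.79 CPM in WT and rose to 8.23 CPM in S1S2 (log2 fold change 1.56 ± 0.070, adjusted p = 1.59e-08). In G9Gl its mean was 3.615 CPM, above WT by 0.37 ± 0.108, which did not pass the test (adjusted p = 0.0317). Irf5 was lower in G9Gl than in S1S2 (-1.19 ± 0.092, adjusted p = 2.43e-07). About 9.24% of the 75-base stretches of Irf5 are shared with the antisense gene Tnpo3. The other tested factor, Irf2 (named after its values were seen), had means of 13.3 CPM in WT, 16.2 CPM in S1S2 and 17.3 CPM in G9Gl. Irf2 passed the test against WT in G9Gl (0.38 ± 0.098, adjusted p = 0.00264) and not in S1S2 (0.28 ± 0.096, adjusted p = 0.0211), and the difference between the mutants did not pass (0.10 ± 0.13, adjusted p = 0.4).

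The sensors, adaptors and kinases that act upstream of Irf3 and Irf7 were all tested. Of these 15 genes, 1 was called higher in S1S2 and 4 in G9Gl, and none lower by edgeR or DESeq2, where 4.66% and 6.77% of all tested genes were called higher. At an unadjusted p under 0.05, 1 gene was lower in each mutant, against 26.8% and 25.3% of all genes. Ifih1, the cytoplasmic sensor of long double-stranded RNA, was at 14.1 CPM in WT and rose to 68.8 CPM in S1S2 (2.28 ± 0.063, adjusted p = 7.64e-14) and 90.0 CPM in G9Gl (2.67 ± 0.094, adjusted p = 4.78e-15). Called against WT in G9Gl and not in S1S2 were Tlr3, the endosomal sensor of double-stranded RNA (log2 fold change 1.54), Ddx58, the sensor RIG-I (1.26), and Dhx58, a regulator of both cytoplasmic sensors (1.81). In S1S2, Ddx58 also rose, below the fold limit (0.70, adjusted p = 2.57e-06). There Tlr3 (0.15, adjusted p = 0.415) and Dhx58 (0.47, adjusted p = 0.0422) did not pass the test. For Tlr3 and Dhx58 the difference between the mutants was also called, at 1.38 and 1.33, while for Ddx58 it was 0.57 (adjusted p = 1.33e-05) and not called. Over the whole list, 6 genes rose in S1S2 and 7 in G9Gl without the fold limit (20.3% and 19% of all genes did), and 1 fell in G9Gl (Tbk1, a kinase of Irf3 and Irf7, at -0.16, named after its value was seen), with medians of 0.17 and 0.30.

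Among 13 negative regulators, Usp18, which binds Ifnar2 and limits signalling, was the single call in S1S2, where 4.66% of all genes were called higher. It had 3 to 10 counts in WT libraries, 75 to 107 in S1S2 and 531 to 824 in G9Gl, and its log2 fold change was 4.32 ± 0.38 (adjusted p = 1.27e-08) and 6.95 ± 0.42 (adjusted p = 2.89e-13). Socs2, a suppressor of cytokine signalling, was called in G9Gl in addition (1.25 ± 0.35, adjusted p = 0.000201), which makes 2 of the 13 against 6.77% of all genes. Socs2 also rose in S1S2 (0.86 ± 0.38, adjusted p = 0.00644), below the fold limit, and the difference between the mutants did not pass the test (0.39 ± 0.22, adjusted p = 0.146). None of the 13 was called lower by edgeR or DESeq2, with 1 lower at an unadjusted p under 0.05 in S1S2 and 5 in G9Gl, against 26.8% and 25.3% of all genes. The medians of the list were 0.13 and -0.085.

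The known target genes had larger median changes than the 9 signalling genes. Both lists were chosen with earlier results of these data known, so the counts and medians describe the lists and are no independent test. Of 36 interferon-stimulated genes, all tested, 21 were called higher in S1S2 and none lower by edgeR (22 and none by DESeq2, and none lower at an unadjusted p under 0.05), and the median of the list was 1.66. In G9Gl 27 were called higher and 1 lower, with a median of 1.92. Of all tested genes, 4.66% were called higher in S1S2, and in G9Gl 6.77% were called higher and 3.4% lower. Between the mutants 10 were called higher and 7 lower in G9Gl, against 7.97% and 5.08% of all genes, so that the targets did not follow a single order. The 2'-5'-oligoadenylate synthetase genes had very low WT levels. Oas1a had 2 to 6 counts per WT library and a mean of 1.89 CPM in S1S2 and 32.4 CPM in G9Gl, Oas2 had 2 to 3 WT counts and 1.36 and 14.04 CPM, and Oas3 had 0 to 2 WT counts and 5.22 and 6.20 CPM. Nearly 47.6% of the 75-base stretches of Oas1a are shared with Oas1g, so that its level is uncertain.

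Higher in G9Gl than in S1S2, as Irf7 and Irf9 were, were Ifi44 (1.502 CPM in S1S2 and 21.4 in G9Gl, log2 difference 3.83 ± 0.38) and Ifi27 (18.9 and 152.2 CPM, 3.01 ± 0.081). Xaf1, a pro-apoptotic gene, was called in all 3 comparisons, with 2.02 ± 0.19 in S1S2 and 4.14 ± 0.23 in G9Gl against WT and 2.11 ± 0.14 between the mutants. The 7 targets higher in S1S2 than in G9Gl, as Irf1 was, were Samd9l, Rsad2, Cxcl10, Cmpk2, Oasl1, Ifit1 and Ifit2, of which those beyond the 6 largest changes were named after their values were seen. Rsad2, the antiviral enzyme viperin, had means of 3.75 CPM in WT, 65.8 CPM in S1S2 and 13.5 CPM in G9Gl, and the chemokine gene Cxcl10 had 9.39, 133.1 and 36.9 CPM. Oasl1 had 4.03, 47.6 and 14.7 CPM. Samd9l, a restriction factor of poxviruses, moved in opposite directions, with 24.3 CPM in WT, 69.3 CPM in S1S2 (1.51 ± 0.098, adjusted p = 1.18e-11) and 6.53 CPM in G9Gl (-1.90 ± 0.089, adjusted p = 5.8e-12).

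In a list of 14 genes of the Irf1 and interferon-gamma response, 12 were tested. In S1S2, where Irf1 was highest, 4 were called higher (4.66% of all genes were), with a median of 0.82. In G9Gl 10 were called higher (6.77% of all genes), with a median of 2.38, and 8 were higher in G9Gl than in S1S2 with none lower (edgeR and DESeq2, and 1 lower at an unadjusted p under 0.05), where 7.97% of all genes were called higher and 5.08% lower. Nlrc5, the activator of MHC class I genes, had 0.896 CPM in WT, 4.62 CPM in S1S2 and 71.8 CPM in G9Gl. Gbp3, Tap1 and Igtp were the other calls in S1S2, at log2 fold changes of 2.10, 1.05 and 1.37, and reached 3.17, 2.18 and 3.48 in G9Gl. The further calls in G9Gl were Gbp2 (2.58), the immunoproteasome genes Psmb8 (4.08) and Psmb9 (2.64), the peptide transporter gene Tap2 (1.09), B2m (1.73) and the GTPase gene Irgm1 (1.00). Of these, Gbp2 (0.68), Tap2 (0.81) and Irgm1 (0.83) also passed the adjusted limit in S1S2, while Psmb8, Psmb9 and B2m did not. Without the fold limit, 9 genes of the list rose in S1S2 and 11 in G9Gl, against 20.3% and 19% of all genes.

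**Figure D4:**
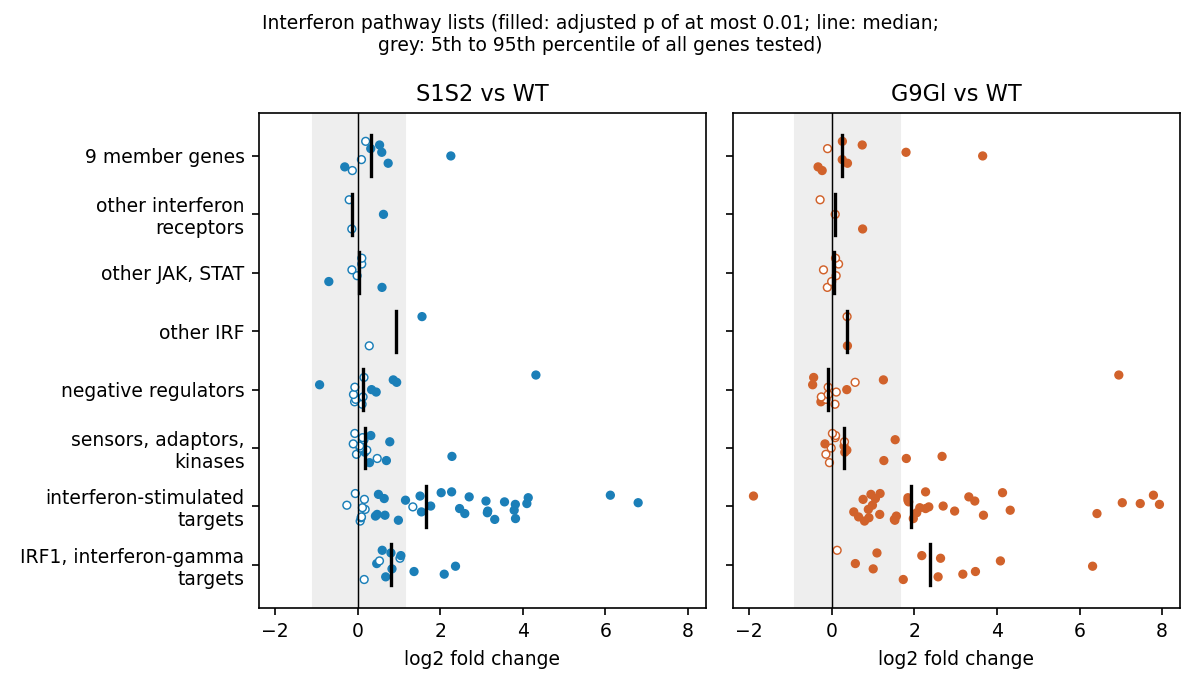
Log2 fold change against WT (horizontal axis) of every tested gene in 8 interferon pathway lists, in S1S2 (left) and G9Gl (right). Filled points have an adjusted p of at most 0.01, black lines are medians and the grey band runs from the 5th to the 95th percentile of all tested genes. The medians of the 9 signalling genes are 0.32 and 0.26, and those of the interferon-stimulated targets are 1.66 and 1.92.

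Replicate libraries also differed among themselves. In G9Gl, replicate 1 was the highest library for Irf7, Irf9, Stat2 and Ifnar1 and for 34 of the 36 target genes (94.4%), while it was the highest for 35.2% of all tested genes. In S1S2, replicate 3 was the highest for Irf7, Stat2, Irf3 and Tyk2 and for 26 of the 36 targets (72.2%), against 36.4% of all genes, whereas Irf9 was highest in replicate 1. Among the G9Gl libraries, Irf1 and Jak1 were highest in replicate 3.

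Genes whose log2 CPM followed Irf9 and Irf7 most closely over the 9 libraries are given as a description, since the points share libraries and genotype sets most of the spread. For Irf9 the highest Pearson r belonged to Erap1, a peptidase that trims MHC class I peptides (0.998), the GTPase gene Igtp (0.994), Ube2l6 and Herc6, which conjugate Isg15 (0.993 both), and 1700049E17Rik2 (0.993), and 292 genes exceeded 0.95. For Irf7 it belonged to Parp14, an ADP-ribosyltransferase (0.995), Chrnb1, an acetylcholine receptor subunit gene (0.994), Apol9b (0.993), Usp18 (0.992) and Pla1a, a phospholipase gene (0.992), and 189 genes exceeded 0.95. Parp14 was at 21.4 CPM in WT, 47.9 CPM in S1S2 and 76.9 CPM in G9Gl, and Erap1 at 51.7, 62.2 and 93.6 CPM. Of the 36 target genes, 28 had RefSeq promoters, 32 in all. The ISRE core occurred in 11 of the 32 promoters (34.4%) and the STAT core in 7 (21.9%), against 3.44% and 8.3% of all promoters.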

How the data were processed

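The methods of the study were assumed to apply to these 9 libraries, although its data statement names another series. By these methods, RNA was sequenced as stranded total RNA with paired 75-base reads, and the authors used cutadapt, STAR 2.5.2b (GRCm38) and TEtranscripts. The values deposited by the authors are raw read counts per Ensembl gene, not normalized. The annotation release and the strand setting are not given in the sources used here. TEtranscripts can divide multiply aligned reads among similar genes, so shares of common 75-base stretches were computed from GENCODE M21 transcripts, which matched 47310 of the 47937 identifiers. Some genes of the pathway were not analysed here.

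Counts were filtered with filterByExpr, scaled by TMM and tested in edgeR 4.0.16 (R 4.3.3) by quasi-likelihood (glmQLFit, glmQLFTest) with all 9 libraries in 1 model. Adjustment was by Benjamini-Hochberg over all 15540 tested genes, and adjusted p-values are two-sided and from this test unless another setting is named. A call required an adjusted p no higher than 0.01 together with a 2-fold change. CPM include the TMM factors, and SE comes from the spread of log2 CPM (prior count 2) between replicates. Floors of 3 counts cover counting error only, since the reads carry no molecular identifiers and may repeat a molecule. No 2 replicates agreed within counting noise (chi-square per degree of freedom 2.59 to 24.5). The scripted fit was tested on simulated counts with the same dispersion for every gene. That run checks the code and not the error rate in these libraries.

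The 9 genes and all lists were chosen with earlier results of these data known. All 9 are given. From lists of up to 15 genes every called gene is named, and from longer lists the 6 largest changes in each comparison among called genes with a mean count over 100, plus the 5 genes most like each member called against WT. Alternatives were DESeq2 1.42.0, its size factors, no composition factor, chromosome medians removed, no filter, at least 10 counts in every library, a mean count over 100, only the libraries compared, a replicate block, glmTreat against 1.5-fold and leaving out each library.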

Additional observations from a re-analysis of the deposited data

Results flagged for a closer look

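The difference between the mutants was itself tested for each of the 9 genes, and for 2 of them the responses of G9Gl and S1S2 differed by more than 2-fold. Irf9 was higher in G9Gl than in S1S2 by 1.215 on the log2 scale (adjusted p = 1.33e-09), and the value without any single library ranged from 1.10 to 1.29. Irf7 was higher by 1.398 (adjusted p = 9.81e-07), with a range of 1.17 to 1.54 without any single library. In both cases all 3 G9Gl libraries were above all 3 S1S2 libraries.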

How the results depend on the processing

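Of the 141 comparisons of counts with an alternative setting, 139 stayed within 1.5 times the reported count. With glmTreat against 1.5-fold, 2 members instead of 1 were called in S1S2 against WT, because that test has a lower fold limit. With chromosome medians removed, 5 instead of 8 members passed in G9Gl against WT, with the receptor genes and Tyk2 lost. Of the 405 single values, 373 kept direction and side of the limit, 15 no longer passed, 11 newly passed and 6 changed sign. The 6 were all in G9Gl against S1S2, where none had passed the test. With chromosome medians removed, Ifnar1 was at 0.0093, Ifnar2 at 0.094 and Tyk2 at -0.039, and without S1S2 replicate 2, S1S2 replicate 3 or G9Gl replicate 2 Ifnar2 changed sign, within a range of -0.10 to 0.046 over the libraries left out. Every value of Irf7, Irf9, Irf1 and Jak1, and those of Stat2 against WT, kept direction and side of the limit in all 15 settings run for each. The cause of the other changes was not tested.

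Replicate numbers did not pair the libraries, with correlations of same-numbered libraries from -0.069 to 0.12. A fit with the replicate number as a block called 1, 2 and 2 members and 22, 28 and 18 target genes in S1S2 and G9Gl against WT and between the mutants, and changed no call of a member. Depth limits Irf7 in WT most, with 39 to 67 counts per library.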
